A study of Mus musculus with 18 samples.

Results

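The genes described here are a list of 54 mitosis and G2/M genes, with the kinesin family left out, measured in whole MC38 tumors. The list was given by name, so no measured value chose its members, but it was drawn up with earlier results of these tumors known. An array probe set that the annotation pairs with 1 gene symbol was found for 53 of the 54 genes. For cyclin B1 (Ccnb1) none was paired, and it has no value here. The 53 measured genes stand among 18193 genes with such a probe set. A gene with more than 1 probe set is given by the brightest over all arrays.

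MC38 is a mouse colon carcinoma line, which was inoculated with Matrigel in the flank of C57BL/6-Ly5.1 mice at 6 to 12 weeks of age. Both drugs were given to 4 mice (MEKi/CD40), namely the MEK inhibitor GDC-0623 at 30 mg/kg each day for about the last 2 weeks and an agonist antibody against CD40 on treatment days 3, 5 and 7 and again 1 day before sampling. The inhibitor with a control antibody was given to 5 mice (MEKi), the anti-CD40 antibody with the vehicle MCT to 4 mice (anti-CD40), and vehicle with control antibody to 5 mice (control). All 18 tumors were taken on day 22 after inoculation, and each array holds a piece of the tumor of another animal, so the p-values measure spread between animals. A piece holds tumor, stromal and immune cells together, and fewer dividing cells cannot be told apart from less of these RNAs per cell. Of 12 epithelial markers, 10 were at the array's floor in every MEKi/CD40 tumor and 11 in every tumor of each of the other groups, keratins 8 and 18 and Epcam among them, so those markers gave no check of the labelled tissue.

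A dividing cell makes most of its mitotic RNAs late in the cycle, after its DNA has been copied. CDK1 bound to cyclins A and B then drives entry into mitosis, condensin and topoisomerase II compact the chromosomes, and kinetochores built on CENP-A chromatin attach them to the spindle. The spindle checkpoint holds the ubiquitin ligase APC/C inactive until every chromosome is attached, after which separase parts the sister chromatids and the cell is cut in 2. Many of these genes are read together by MuvB complexes with B-MYB and FOXM1, which act at a promoter element called the cell cycle genes homology region (CHR), often with CCAAT boxes bound by NF-Y. MEK stands upstream of ERK in the growth factor pathway, and CD40 is a receptor on antigen presenting cells.

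The promoter windows in RefSeq (build GRCm38.p6, 250 bases before to 50 after each gene's start) were searched for the CHR letters TTTGAA or TTTAAA and for CCAAT, on both strands. The letters of CCAAT and of its reverse can overlap each other, and a match describes letters only. The table held windows for 44 of the 54 genes. CHR letters were found in 33 of these genes (75%), against 30.6% of the 27025 genes in the table and 24.7% of the 14368 genes that also have a probe set. CCAAT was found in 33 of them (75%), against 41.1% of all genes in the table, and both motifs stood in 29 (65.9%), against 12.2%. The 5 windows printed here show how the motifs sit in genes of mitotic entry (Cdca3), the kinetochore (Cenpa), anaphase (Cdc20 and Ube2c) and cytokinesis (Prc1). They were taken from 8 windows with both motifs, as those with CHR letters no more than 30 bases from the start. They are Cdca3 at chr6:124829926-124830225 (plus strand), Cenpa at chr5:30666636-30666935 (plus), Cdc20 at chr4:118437294-118437593 (minus), Ube2c at chr2:164769679-164769978 (plus) and Prc1 at chr7:80294201-80294500 (plus). Capitals mark the letters of both motifs on either strand.
Cdca3: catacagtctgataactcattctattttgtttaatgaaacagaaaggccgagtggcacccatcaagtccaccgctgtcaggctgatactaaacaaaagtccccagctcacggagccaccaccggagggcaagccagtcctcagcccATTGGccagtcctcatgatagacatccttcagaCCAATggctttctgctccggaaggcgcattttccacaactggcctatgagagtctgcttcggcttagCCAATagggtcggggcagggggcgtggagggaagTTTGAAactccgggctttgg
Cenpa: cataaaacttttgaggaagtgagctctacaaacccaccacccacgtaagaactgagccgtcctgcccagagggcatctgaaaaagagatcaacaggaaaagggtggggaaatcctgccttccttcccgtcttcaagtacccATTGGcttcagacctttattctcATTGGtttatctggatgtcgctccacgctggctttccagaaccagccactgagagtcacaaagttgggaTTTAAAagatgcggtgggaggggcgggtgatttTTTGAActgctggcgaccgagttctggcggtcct
Cdc20: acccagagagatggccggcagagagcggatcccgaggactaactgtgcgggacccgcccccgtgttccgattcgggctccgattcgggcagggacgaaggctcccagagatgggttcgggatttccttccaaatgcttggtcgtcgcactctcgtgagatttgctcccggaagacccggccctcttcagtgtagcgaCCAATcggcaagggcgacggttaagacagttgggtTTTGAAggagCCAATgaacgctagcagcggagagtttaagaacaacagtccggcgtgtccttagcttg
Ube2c: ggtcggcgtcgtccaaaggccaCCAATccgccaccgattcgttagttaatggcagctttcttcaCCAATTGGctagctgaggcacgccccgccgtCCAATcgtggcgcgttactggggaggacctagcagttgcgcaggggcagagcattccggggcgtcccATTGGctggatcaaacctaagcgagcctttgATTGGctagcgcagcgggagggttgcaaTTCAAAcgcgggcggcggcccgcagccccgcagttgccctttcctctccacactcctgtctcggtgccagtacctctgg
Prc1: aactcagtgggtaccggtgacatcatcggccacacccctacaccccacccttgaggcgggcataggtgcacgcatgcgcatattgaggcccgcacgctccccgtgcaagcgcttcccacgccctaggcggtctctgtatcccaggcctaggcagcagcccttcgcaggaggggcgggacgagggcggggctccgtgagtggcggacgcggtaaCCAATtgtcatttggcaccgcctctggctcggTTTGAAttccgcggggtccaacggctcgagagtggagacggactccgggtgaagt

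In Prc1 a single CHR began 5 bases before the start, with 1 CCAAT box further out. Cenpa held a CHR on each side of the start, 17 bases before and 16 bases after it, and Ube2c held 6 CCAAT matches. Over the 44 genes the centre of a CHR match lay at a median of −9 bases from the start and that of a CCAAT match at −67 bases.

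**Figure D1:**
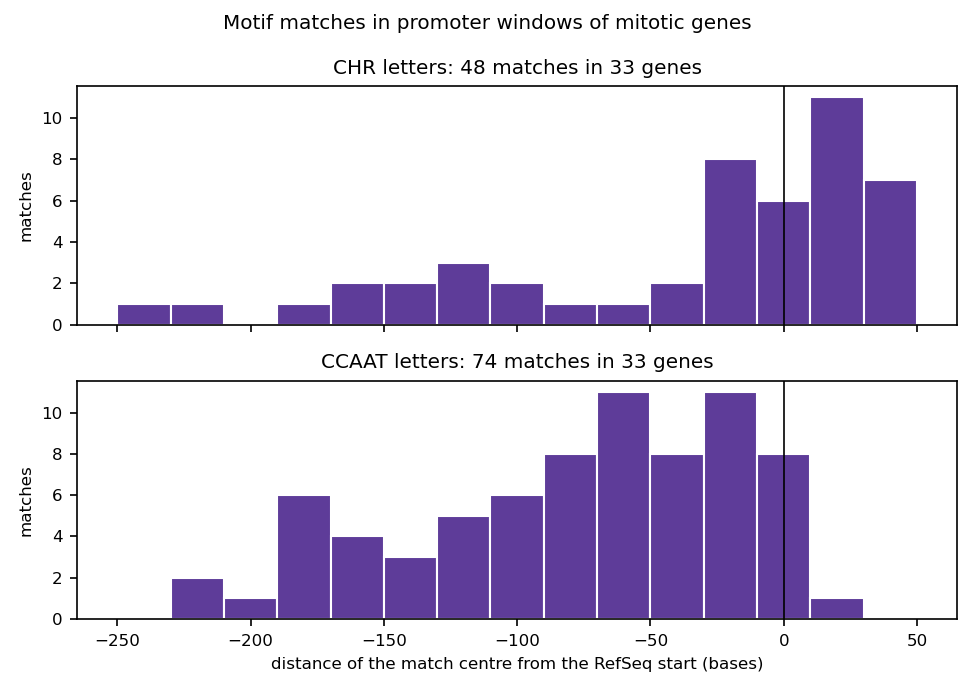
Distance in bases of each motif match from the RefSeq start (x axis, start at 0) against the number of matches in bins of 20 bases (y axis), for CHR letters (top) and CCAAT letters (bottom) in the promoter windows of mitotic genes. The 48 CHR matches of 33 genes are most frequent around and just after the start, and the 74 CCAAT matches of 33 genes lie mostly before it.

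All 53 measured genes were above the array's floor in every tumor, with means over the 18 arrays of 6.61 to 12.87 on the deposited log2 scale. Called means an adjusted p below 0.05 in limma's moderated test, two-sided, with Benjamini-Hochberg adjustment over 45037 probe sets. Differences are log2 values, given with the standard error (SE) of the model. The numbers in the sample titles fall into 3 ranges, which the labels do not explain. The lowest range holds MEKi tumors 1 and 2 and the 4 anti-CD40 tumors, the middle range the 4 MEKi/CD40 tumors and control tumors 1 and 2, and the highest range MEKi tumors 3 to 5 and control tumors 3 to 5. Values within a range are given beside each comparison that a range allows.

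Mitotic genes were lower in the MEKi/CD40 tumors than in control tumors across all 8 roles. In this comparison 52 of the 53 genes were called lower and 0 higher, against 9.37% of all probe sets called lower and 5.5% called higher. Of the probe sets with a mean of at least 5, 21.8% were called lower. The median difference was −1.61, a 3.05-fold lower signal, and the median over the probe sets with a mean of at least 5 was −0.07. All MEKi/CD40 tumors lay below all control tumors for 52 genes, against 10.3% of all probe sets. This share and the later ones for overlap include probe sets at the floor, which made up 53.7 to 55.8% of an array. They were not computed for the probe sets with a mean of at least 5. The differences ran from −2.18 for Nusap1, a spindle microtubule binder, to −0.11 for Pttg1, the securin that restrains separase, which was the gene not called.

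The mean log2 signal over the 53 genes was 8.70, 8.51, 9.09 and 9.07 in MEKi/CD40 tumors 1 to 4 and 9.37, 9.90, 9.38, 9.88 and 9.72 in MEKi tumors 1 to 5. It was 10.15, 10.48, 10.53 and 10.41 in anti-CD40 tumors 1 to 4 and 10.60, 10.63, 10.40, 10.39 and 10.22 in control tumors 1 to 5. The MEKi/CD40 tumors were thus below every other tumor, the MEKi tumors lay between, and the anti-CD40 and control tumors overlapped.

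**Figure D2:**
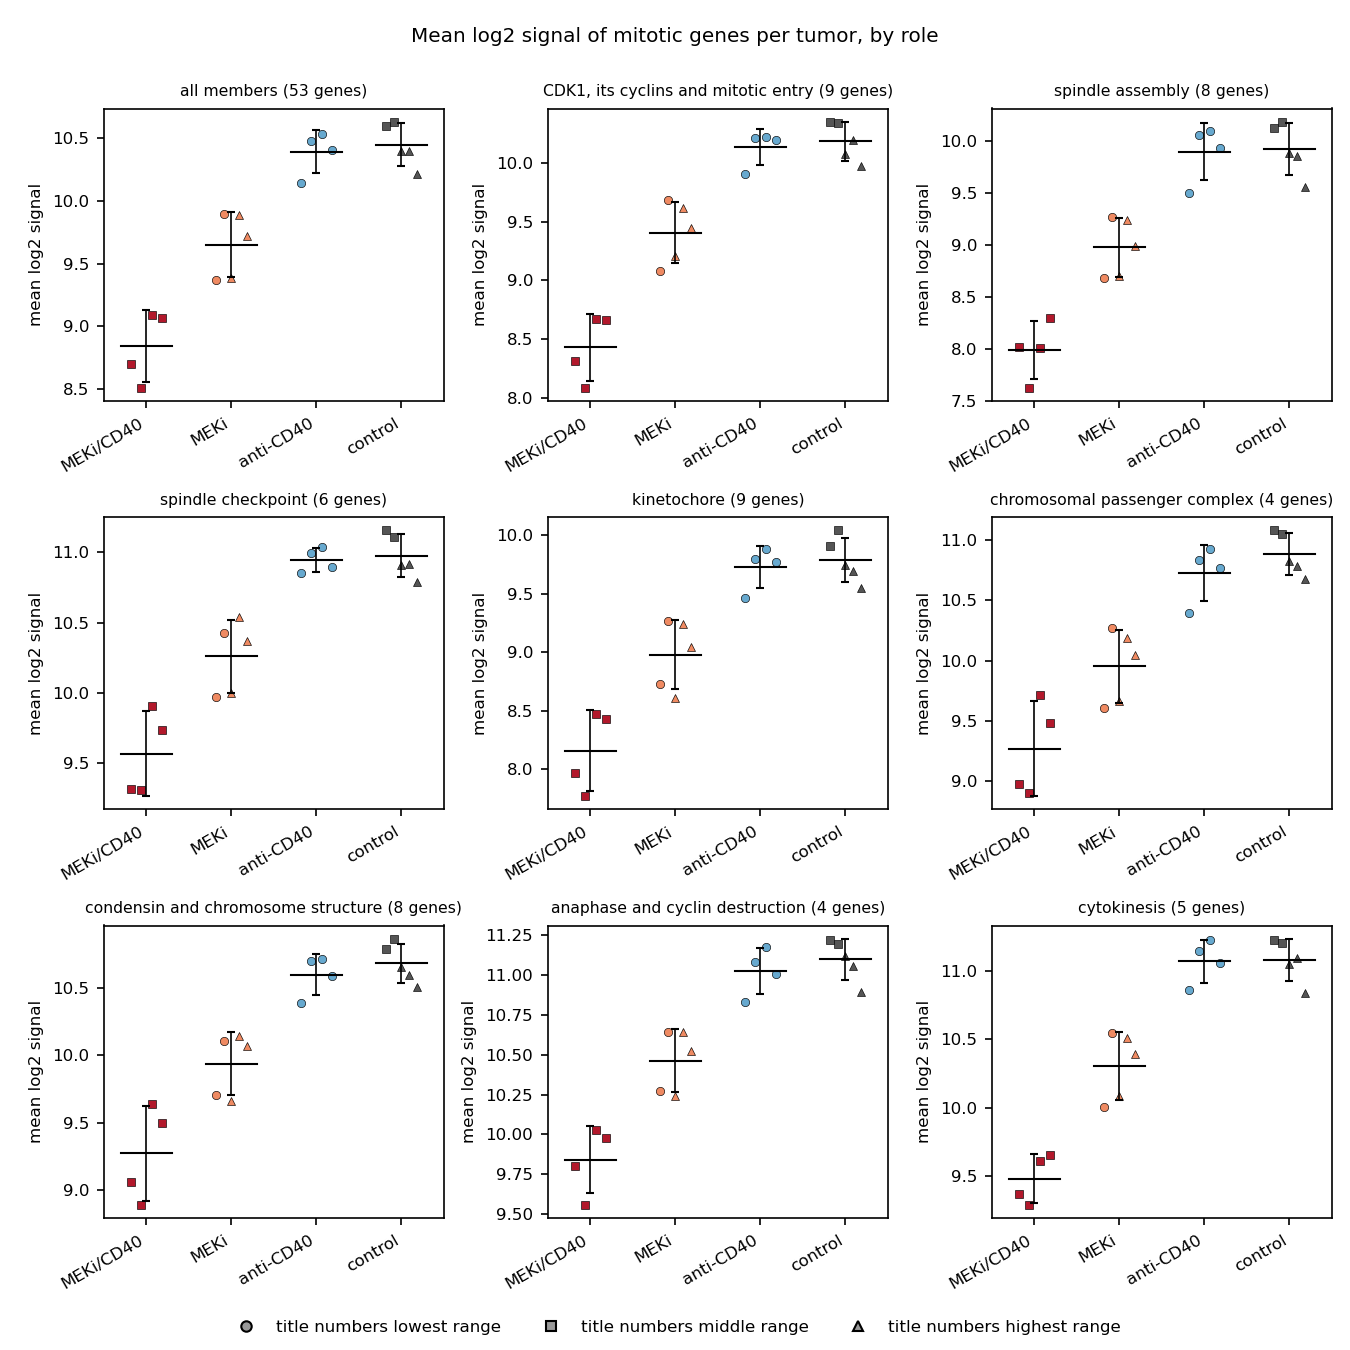
Mean log2 signal per tumor (y axis) of all 53 measured mitotic genes and of the genes of each role, by treatment group (x axis). Each point is 1 tumor, its shape gives the range of the number in its title, and lines and bars give the group mean and SD (n = 4, 5, 4 and 5). In all 9 panels every MEKi/CD40 and every MEKi tumor sits below every control tumor, while the anti-CD40 tumors overlap the control tumors.

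Of the genes for mitotic entry, all 9 measured were lower with MEKi/CD40 than in control tumors (median −1.61). Cdk1, the kinase that drives entry, had a log2 signal of 10.94, 10.82, 11.51 and 11.25 in MEKi/CD40 tumors, against 12.54, 12.33, 12.31, 12.38 and 12.20 in control tumors. The groups did not overlap, and the difference was −1.22 ± 0.15 (SE, adjusted p = 0.0025). Its partner cyclin B2 (Ccnb2) had 8.91, 8.20, 8.42 and 9.0 in MEKi/CD40 tumors, against 11.06, 10.83, 10.60, 10.67 and 10.32 in control tumors, a difference of −2.06 ± 0.21 (adjusted p = 0.00166). The lowest control tumor thus stood well above the highest MEKi/CD40 tumor. Cdc25b and Cdc25c, phosphatases that activate CDK1, differed by −1.53 and −2.10, and Cdca3, which promotes mitotic entry, by −2.03. Foxm1, the transcription factor of the G2/M program, had 5.75, 5.02, 6.29 and 5.73 in MEKi/CD40 tumors, against 7.71, 7.89, 7.62, 7.85 and 7.54 in control tumors (difference −2.02 ± 0.23, adjusted p = 0.0023).

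Spindle assembly was the role with the lowest median, −1.96, and all 8 of its genes were called lower. Plk1, a kinase of centrosomes and kinetochores, had 7.91, 7.69, 8.21 and 8.51 in MEKi/CD40 tumors, against 10.49, 10.31, 10.17, 10.10 and 9.63 in control tumors, again without overlap (difference −2.06 ± 0.22, adjusted p = 0.00181). Aurka, the Aurora kinase of the spindle poles, differed by −2.12, Nek2, a kinase of centrosome separation, by −1.88, Hmmr by −1.94 and Ckap2 by −1.74. Nusap1 had 8.93, 8.54, 8.03 and 9.19 in MEKi/CD40 tumors, against 11.01, 11.11, 10.72, 10.88 and 10.53 in control tumors. For Nusap1 MEKi/CD40 tumor 3 was the lowest of its group, whereas tumor 2 was the lowest for 38 of the 53 genes.

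The 6 spindle checkpoint genes were all called lower, with a median of −1.48 and a wide range. Bub1, a checkpoint kinase, differed by −2.04 ± 0.21 (adjusted p = 0.00158), and Mad2l1, the MAD2 protein that inhibits CDC20, by −1.46 ± 0.12. Bub1b, its partner in the checkpoint complex, had 8.84, 8.71, 8.93 and 9.17 in MEKi/CD40 tumors, against 10.40, 10.45, 10.36, 10.09 and 10.18 in control tumors (difference −1.38 ± 0.11, adjusted p = 0.000894). Bub3, which brings BUB1 and BUBR1 to kinetochores, changed least among the genes called. It had 11.68, 11.65, 11.79 and 11.68 in MEKi/CD40 tumors, against 12.29, 12.12, 12.15, 12.21 and 12.10 in control tumors. The groups still did not overlap for Bub3, and its difference was −0.47 ± 0.05 (adjusted p = 0.00143).

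All 9 kinetochore genes were called lower (median −1.58), among them the 4 subunits of the NDC80 complex that holds microtubules, with Ndc80 at −2.05, Nuf2 at −1.62, Spc24 at −1.58 and Spc25 at −1.43. Cenpa, the centromeric histone H3, had 9.46, 9.13, 9.50 and 9.71 in MEKi/CD40 tumors, against 11.32, 11.31, 11.08, 11.00 and 10.87 in control tumors (difference −1.67 ± 0.14, adjusted p = 0.000997). Cenpk, of the inner kinetochore, differed by −1.52 ± 0.15. The chromosomal passenger complex was lower in all 4 of its genes (median −1.60). Its kinase Aurkb had 7.12, 7.41, 8.18 and 7.92 in MEKi/CD40 tumors, against 10.01, 9.79, 9.58, 9.72 and 9.41 in control tumors (difference −2.04 ± 0.23, adjusted p = 0.00224). Cdca8 (borealin) differed by −1.69, Birc5 (survivin) by −1.52 and the scaffold Incenp by −1.21.

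Genes of chromosome structure were lower in all 8 cases, with a median of −1.39. The core condensin subunits Smc2 and Smc4 differed by −1.08 ± 0.13 and −1.03 ± 0.09, and the condensin I subunits Ncapd2, Ncapg and Ncaph by −1.43, −1.67 and −1.71. Top2a, the topoisomerase that untangles sister chromatids, had 11.47, 11.20, 12.09 and 11.78 in MEKi/CD40 tumors, against 13.15, 13.14, 12.90, 12.90 and 12.89 in control tumors (difference −1.36 ± 0.18, adjusted p = 0.00331). Mki67, which encodes the proliferation antigen Ki-67 that coats mitotic chromosomes, had 10.14, 9.96, 10.78 and 10.56 in MEKi/CD40 tumors, against 11.58, 11.71, 11.58, 11.53 and 11.30 in control tumors. Its difference was −1.18 ± 0.18 (adjusted p = 0.00536), smaller in size than the median of the 53 genes.

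The 4 anaphase genes divided, with 3 called lower. Ube2c, the ubiquitin conjugating enzyme of the APC/C, had 10.04, 9.37, 10.36 and 10.17 in MEKi/CD40 tumors, against 12.25, 12.18, 12.17, 12.21 and 11.78 in control tumors (difference −2.13 ± 0.21, adjusted p = 0.00142). Cdc20, the activator of the APC/C, differed by −1.74 ± 0.15 and Espl1, the separase, by −1.03 ± 0.14. Pttg1 had 11.46, 11.50, 11.28 and 11.47 in MEKi/CD40 tumors, against 11.48, 11.73, 11.54, 11.41 and 11.54 in control tumors. These groups overlapped, the difference was −0.11 ± 0.07 (adjusted p = 0.466), and its 95% interval ran from −0.28 to 0.06. The call for Pttg1 depended on the probe set. The set used, 1438390_s_at, carries the suffix for probes shared by several transcripts, while 1424105_a_at, dimmer with a mean of 10.16, was called lower (−0.38 ± 0.09, adjusted p = 0.0246), and the third, 1419620_at, near the floor with a mean of 3.47, was not called (−0.11). The RefSeq window of Pttg1 held neither motif, nor did the windows of Melk, Mad2l1, Ncaph, Nuf2, Nusap1 and Trip13, while the window of Bub3 held both.

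The 5 cytokinesis genes were all called lower (median −1.56), and they included the smallest p-values of the list. Anln, which organizes the contractile ring, had 10.55, 10.51, 10.60 and 10.71 in MEKi/CD40 tumors, against 11.98, 12.14, 11.99, 12.07 and 11.87 in control tumors. With this small spread the difference of −1.42 ± 0.06 had an adjusted p of 0.000167. Prc1, which bundles the microtubules of the central spindle, had 8.20, 8.07, 8.42 and 8.37 in MEKi/CD40 tumors, against 10.11, 9.97, 10.01, 10.02 and 9.73 in control tumors (difference −1.70 ± 0.10, adjusted p = 0.000325). Ect2, the exchange factor that activates RhoA, differed by −1.56, Racgap1 by −1.34 and Cep55, of the abscission bridge, by −1.98.

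**Figure D3:**
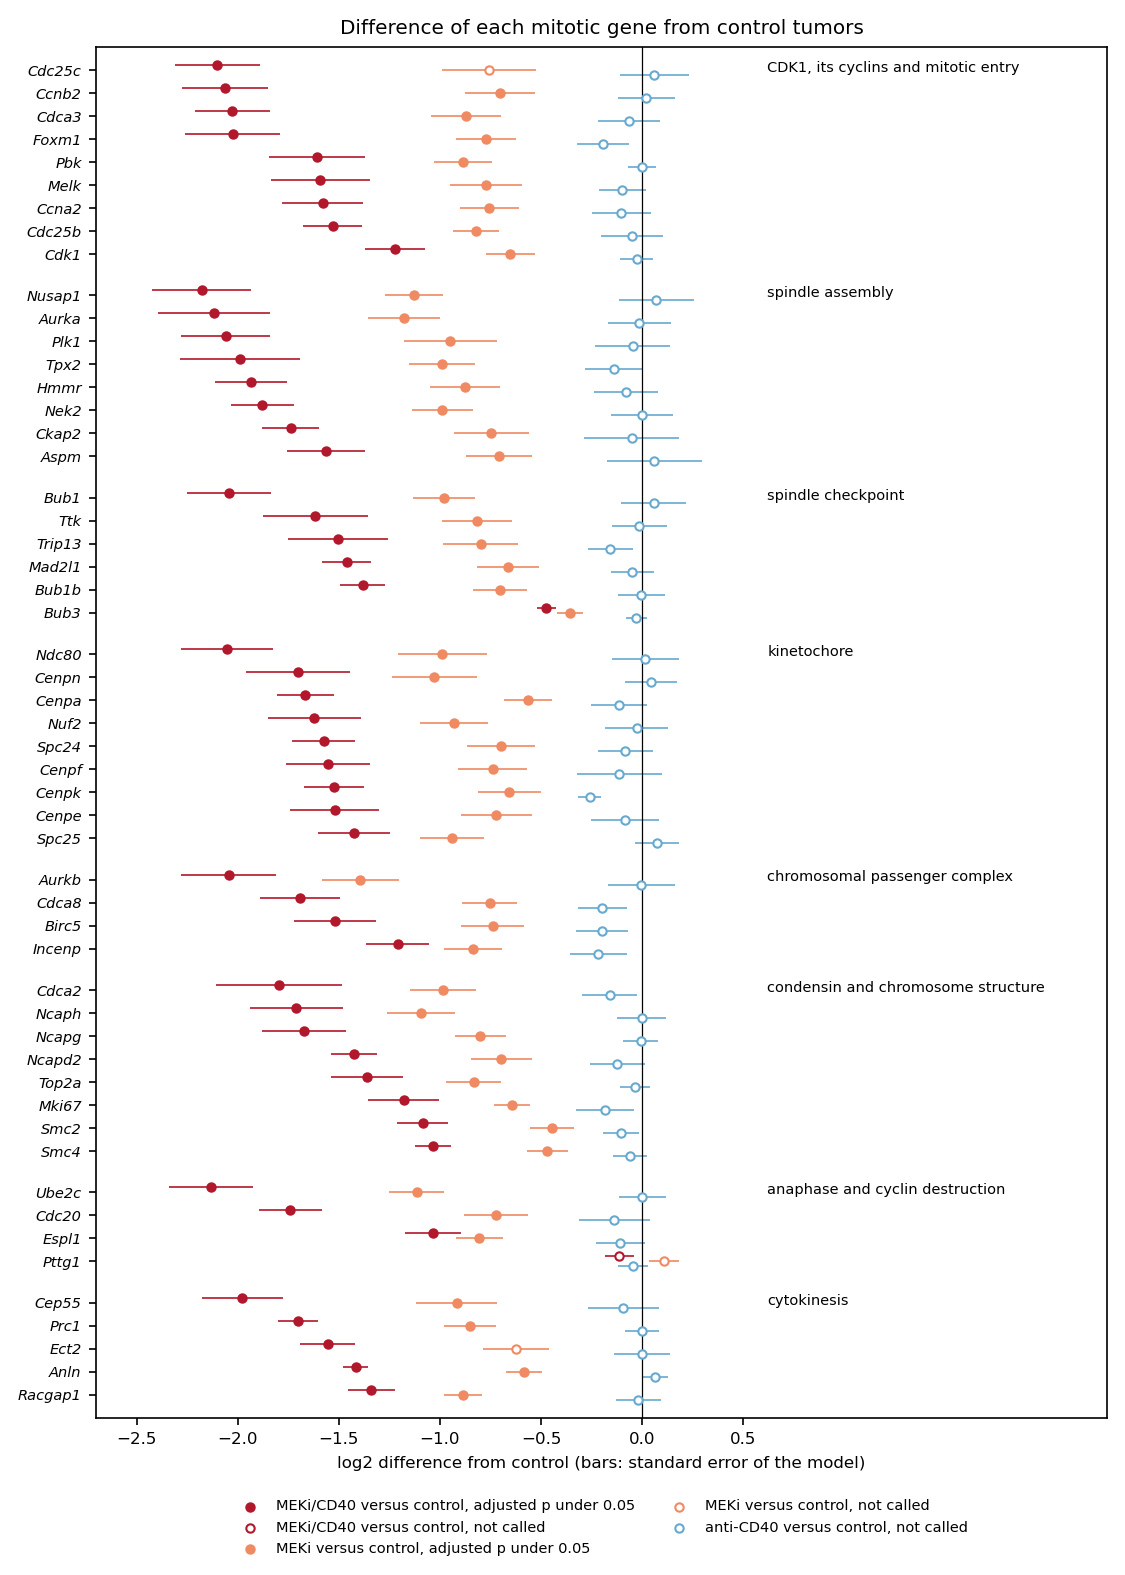
Log2 difference from control (x axis, bars give the SE of the model) of the 53 measured mitotic genes (y axis, grouped by role) in MEKi/CD40, MEKi and anti-CD40 tumors. Filled points have an adjusted p below 0.05, which holds for 52 genes in MEKi/CD40 tumors, 50 in MEKi tumors and 0 in anti-CD40 tumors.

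The 52 calls stood with the title range as a block (52 called, median −1.78). Within the middle range alone, 4 MEKi/CD40 tumors against 2 control tumors, 17 genes were called at the same median. Of all 45037 probe sets this fit called 469 lower and 241 higher. The mean over the 53 genes was 8.51 to 9.09 in the MEKi/CD40 tumors of that range, against 10.60 to 10.63 in the control tumors. For the 37 genes with several probe sets there were 71 further sets, of which 26 were at the floor in every tumor. Of these 71 sets 33 were called lower with MEKi/CD40 and 0 higher. Among the 43 measured genes with a promoter window, the median difference was −1.59 in the 28 with both motifs and −1.59 in the other 15.

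Markers of other cell types moved along the same comparison. Of 9 measured fibroblast markers 8 were higher with MEKi/CD40 than in control tumors, and their mean log2 signal ranged over 13.18 to 13.52 in MEKi/CD40 tumors, 12.09 to 12.80 in MEKi tumors, 11.01 to 11.95 in anti-CD40 tumors and 10.65 to 11.32 in control tumors. No fibroblast marker was at the floor in all MEKi/CD40 tumors. Of 9 adipocyte markers 1 was called higher, and their mean was 4.23 to 11.41 in MEKi/CD40 tumors, 3.93 to 5.54 in MEKi tumors, 3.22 to 6.25 in anti-CD40 tumors and 3.48 to 4.25 in control tumors, where Plin4, Cidec, Lep, Retn and Pck1 were at the floor throughout. The highest adipocyte means were those of MEKi/CD40 tumors 2 and 4 and anti-CD40 tumor 3. Without these 3 tumors 48 mitotic genes were still called lower than in control (median −1.59), and with the adipocyte mean as a covariate 41 (median −1.46). Of all 45037 probe sets these fits called 2171 and 1566 lower. Of 12 skeletal muscle markers 0 were called, but their mean was 8.26 in MEKi/CD40 tumor 4 and at most 3.32 in any other tumor. The part of fibroblast and muscle content in the mitotic values was not tested.

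With MEKi alone most mitotic genes were also lower than in control tumors, by smaller amounts. Of the 53 genes 50 were called lower and 0 higher, against 3.83% of all probe sets called lower and 3.99% called higher. Of the probe sets with a mean of at least 5, 8.69% were called lower. The median difference was −0.80, a 1.74-fold lower signal, and for 47 genes all MEKi tumors lay below all control tumors, against 4.57% of all probe sets. The medians of the 8 roles lay between −0.97 for spindle assembly and −0.74 for the kinetochore. All genes of spindle assembly, the checkpoint, the kinetochore, the chromosomal passenger complex and chromosome structure were called.

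Aurkb differed most, with 7.88, 8.72, 7.97, 8.56 and 8.41 in MEKi tumors, against 10.01, 9.79, 9.58, 9.72 and 9.41 in control tumors (difference −1.39 ± 0.19, adjusted p = 0.00747). Aurka (−1.18), Nusap1 (−1.13) and Ube2c (−1.12) came next. Racgap1, which with its kinesin partner forms the central spindle complex, had the smallest p, at −0.89 ± 0.10 (adjusted p = 0.00427). Mki67 had 10.85, 11.04, 10.69, 11.00 and 10.91 in MEKi tumors, against 11.58, 11.71, 11.58, 11.53 and 11.30 in control tumors, which did not overlap (difference −0.64 ± 0.09, adjusted p = 0.00823). Top2a differed by −0.83, Cdk1 by −0.65, Plk1 by −0.95, Foxm1 by −0.77 and Bub1b by −0.70, all called. The smallest differences among the genes called were those of Bub3 (−0.36 ± 0.07, adjusted p = 0.0176), Smc2 (−0.44) and Smc4 (−0.47).

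The 3 genes not called were Cdc25c (−0.76 ± 0.23, adjusted p = 0.0878), Ect2 (−0.62 ± 0.16, adjusted p = 0.0528) and Pttg1 (0.11 ± 0.07, adjusted p = 0.541). Pttg1 had 11.58, 11.64, 11.49, 11.80 and 11.73 in MEKi tumors, against 11.48, 11.73, 11.54, 11.41 and 11.54 in control tumors, and the groups overlapped. The MEKi tumors themselves differed, since tumors 1 and 3 were the lowest 2 of the 5 for 49 of the 53 genes.

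The calls of this comparison did not stand within a title range. With the range as a block limma called 0 genes (median −0.66), with 49 at an unadjusted p below 0.05. Of all 45037 probe sets this fit called 11 lower and 20 higher. The highest range alone, 3 MEKi tumors against 3 control tumors, also gave 0 calls at that median, with 46 genes at an unadjusted p below 0.05. Here 3 of all 45037 probe sets were called lower and 6 higher. The mean over the 53 genes was 9.38 to 9.88 in the MEKi tumors of that range, against 10.22 to 10.40 in the control tumors, so these groups of 3 did not overlap. Moderation with a trend and robust settings gave 29 calls, and leaving out 1 tumor gave 24 to 50. With the adipocyte mean as a covariate 46 genes were called and the median was −1.20. The covariate was fitted anew for each comparison, so this median cannot be set against the −1.46 of MEKi/CD40 versus control. Under that covariate MEKi/CD40 set directly against MEKi had a median of −0.76. Of 9 fibroblast markers 5 were higher with MEKi and of 10 macrophage markers 3 were lower, and their part in the result was not tested.

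**Figure D4:**
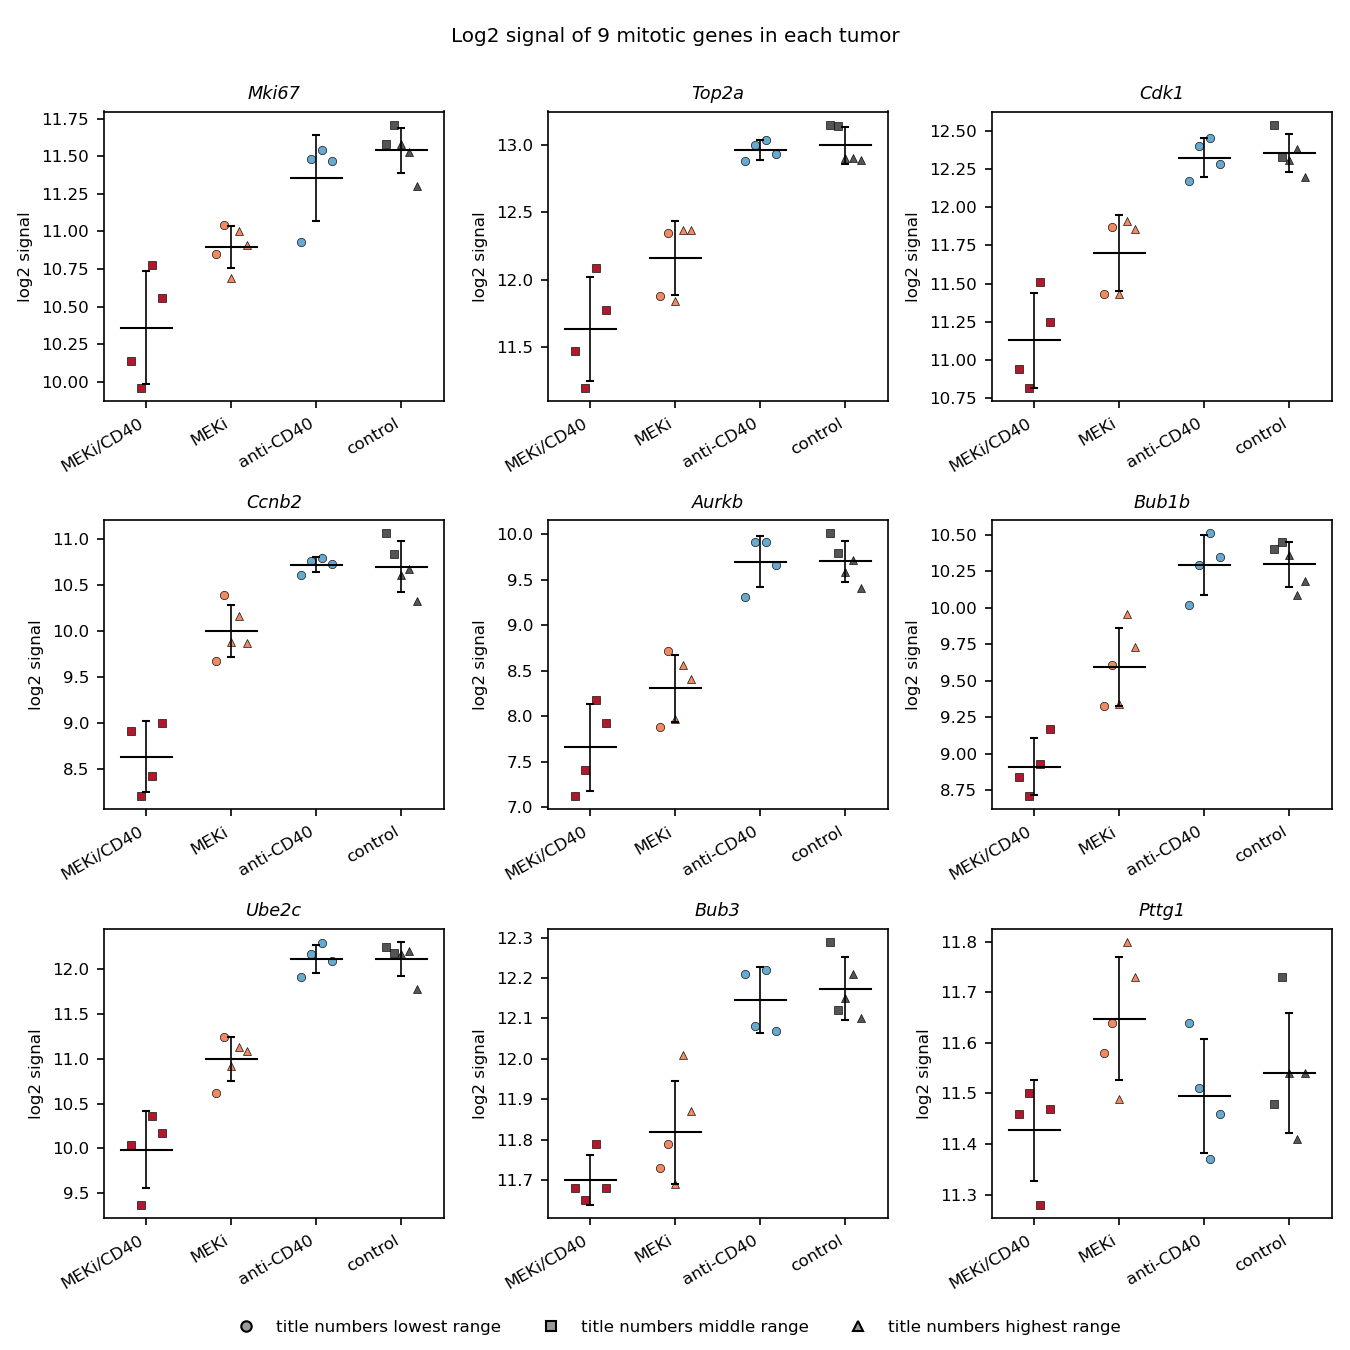
Log2 signal (y axis) of 9 mitotic genes in each tumor by treatment group (x axis). Points are tumors, shapes give the range of the number in the title, and lines and bars give mean and SD (n = 4, 5, 4 and 5). Mki67, Top2a, Cdk1, Ccnb2, Aurkb, Bub1b, Ube2c and Bub3 have lower means in both groups given the inhibitor than in control tumors. The steps are smallest for Bub3. For Ccnb2 MEKi tumor 2 (10.39) lies above control tumor 5 (10.32), and the groups overlap for Pttg1.

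MEKi/CD40 tumors were set against MEKi tumors to see what the antibody added to the inhibitor. The difference was below 0 for all 53 genes, with a median of −0.82, and 14 genes were called lower and 0 higher, against 1.77% of all probe sets called lower and 0.737% called higher. Of the probe sets with a mean of at least 5, 4.18% were called lower. For 34 genes all MEKi/CD40 tumors lay below all MEKi tumors, against 5.8% of all probe sets. The genes called were Ccnb2, Cdc25b, Cdc25c and Cdca3 of mitotic entry, Ckap2, Hmmr and Nek2 of spindle assembly, Anln, Ect2 and Prc1 of cytokinesis, Bub1, Cenpa, Smc4 and Cdc20. Of the 4 chromosomal passenger genes limma called 0 (median −0.71), with 3 at an unadjusted p below 0.05, and Aurkb, the gene that differed most with MEKi alone, stood at −0.65 ± 0.28 (adjusted p = 0.291).

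Ccnb2 had 8.91, 8.20, 8.42 and 9.0 in MEKi/CD40 tumors, against 9.67, 10.39, 9.88, 10.16 and 9.87 in MEKi tumors (difference −1.36 ± 0.22, adjusted p = 0.0321). Anln had 10.55, 10.51, 10.60 and 10.71 in MEKi/CD40 tumors, against 11.22, 11.63, 11.29, 11.57 and 11.41 in MEKi tumors (difference −0.83 ± 0.10, adjusted p = 0.0196). Neither gene showed any overlap. Cenpa had 9.46, 9.13, 9.50 and 9.71 in MEKi/CD40 tumors, against 10.35, 10.82, 10.52, 10.64 and 10.42 in MEKi tumors (difference −1.10 ± 0.14, adjusted p = 0.0224). Mki67 (−0.54, 95% interval −0.95 to −0.13) and Cdk1 (−0.57, −0.99 to −0.15) did not pass after adjustment. Bub3 had an interval of −0.28 to 0.04 that included 0, as did those of Cenpn, Espl1 and Incenp. The interval of Spc25 ran from −0.97 to a bound that rounds to 0.0. By limma 48 of the 53 genes had an unadjusted p below 0.05, and Spc25 was not among them.

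For 29 of the 53 genes every MEKi/CD40 tumor was below every MEKi tumor and every MEKi tumor below every control tumor, an order that 0.764% of all probe sets showed. These genes came from all 8 roles, and included Foxm1, Aurka, Bub1b, Ndc80, Cdca8, Smc2 and Ube2c.

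The count of 14 moved widely with the processing. It was 40 with 1 model over all 18 arrays and 36 among probe sets with a mean of at least 5. It was 0 with limma's trend and robust moderation and 0 with the adipocyte mean as a covariate, where 46 and 34 genes had an unadjusted p below 0.05 and the medians were −0.82 and −0.76. Of all 45037 probe sets these fits called 2 and 97 lower and 9 and 56 higher. Leaving out any 1 of the 9 tumors gave 0 to 9 calls at medians of −0.93 to −0.70, with 0 calls by limma without MEKi tumor 2, 4 or 5 and 41 genes at an unadjusted p below 0.05 in each case. Without MEKi tumor 2, 4 or 5, limma called 22, 22 and 19 of all probe sets lower. MEKi/CD40 tumors share no title range with MEKi tumors, so range and group cannot be told apart from these groups alone. Of 9 fibroblast markers 0 were called between these groups by limma and 6 had an unadjusted p below 0.05, and of 9 adipocyte markers 0 and 1.

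Anti-CD40 alone was not accompanied by a detectable difference in mitotic genes. Of the 53 genes 0 were called in either direction by limma, as for all probe sets (0%), and 1 had an unadjusted p below 0.05, against 5.38% of all probe sets. The median difference was −0.05, and 44 of the 53 genes were below 0, against 54.1% of probe sets with a mean of at least 5. The 95% intervals included 0 for 52 genes, and over all 53 they reached down to −0.61 (Cenpf) and up to 0.61 (Aspm). Cdk1, with 12.17, 12.40, 12.45 and 12.28 in anti-CD40 tumors, against 12.54, 12.33, 12.31, 12.38 and 12.20 in control tumors, had an interval of −0.22 to 0.16.

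The exception at the unadjusted level was Cenpk. It had 9.12, 9.14, 9.11 and 9.11 in anti-CD40 tumors, against 9.41, 9.55, 9.37, 9.32 and 9.25 in control tumors, and was the 1 gene whose groups did not overlap, against 1.05% of all probe sets lower in that way. Its difference was −0.26 ± 0.06 (unadjusted p = 0.00204, adjusted p = 0.528). Anti-CD40 tumor 1 was the lowest of its group for 48 of the 53 genes, with 10.93 for Mki67 against 11.47 to 11.54 in the other 3. Anti-CD40 and control tumors share no title range, so range and group cannot be told apart from these groups alone.

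Set against anti-CD40 instead of control, MEKi/CD40 tumors showed 52 genes called lower and 0 higher (median −1.56), against 7.19% of all probe sets called lower and 4.42% called higher, and Pttg1 was again the gene not called (−0.07). These groups share no title range, so range and group cannot be told apart from these groups alone. Of the other cell markers 5 of 9 fibroblast and 2 of 3 red blood cell markers were called higher in MEKi/CD40 than in anti-CD40 tumors and 1 red blood cell marker lower, and their part in the result was not tested. The MEKi tumors compared with anti-CD40 tumors had 25 genes called lower and 0 higher (median −0.72), against 2.26% of all probe sets called lower and 2.83% called higher. For 40 genes all MEKi tumors lay below all anti-CD40 tumors, against 5.19% of all probe sets. In the same comparison 3 of 9 fibroblast markers and 1 of 12 skeletal muscle markers were called higher and 1 of 10 macrophage and 1 of 10 T cell markers lower, and their part was not tested either. Within the lowest title range, which these groups share, limma called 0 genes, with 40 at an unadjusted p below 0.05, and the mean over the 53 genes was 9.37 to 9.90 in the 2 MEKi tumors, against 10.15 to 10.53 in the 4 anti-CD40 tumors. Of all 45037 probe sets that fit called 65 lower and 114 higher. Without the 3 tumors of highest adipocyte mean the 52 calls of MEKi/CD40 against anti-CD40 became 3 (median −1.48), with 2 MEKi/CD40 tumors and 3 anti-CD40 tumors left. In this smaller fit 49 genes had an unadjusted p below 0.05, and limma called 234 of all 45037 probe sets lower and 173 higher.

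Whether both drugs together differed from the sum of their separate differences was tested by an interaction over all 18 arrays. The contrast was below 0 for all 53 genes (median −0.72), and 10 genes were called lower and 0 higher, against 1.58% of all probe sets called lower and 1.06% called higher. They were Anln (−0.89 ± 0.12, adjusted p = 0.00296), Ccnb2 (−1.38, adjusted p = 0.0149), Prc1 (−0.85, adjusted p = 0.0184), Cenpa (−0.99, adjusted p = 0.0188), Cdc25c, Cdca3, Ect2, Bub1, Hmmr and Ube2c. Of these 10 genes 3 belong to mitotic entry and 3 to cytokinesis, and none to the chromosomal passenger complex or chromosome structure. The medians of the latter 2 roles were −0.61 and −0.57. An unadjusted p below 0.05 stood for 1 of 4 and 5 of 8 of their genes, against 42 of all 53. A difference between roles was not tested. The contrast was near 0 for Bub3 (−0.09 ± 0.09), Espl1 (−0.12 ± 0.21) and Incenp (−0.16 ± 0.24). It rests on 4 groups that lie in different title ranges, and with the range as a block limma called 0 genes, with 23 at an unadjusted p below 0.05, while the median was −1.21. That fit called 5 of all 45037 probe sets lower and 11 higher.

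Further genes of the pathway, listed with earlier results known, gave the setting for these values. Of 58 other mitotic genes measured, 54 were lower with MEKi/CD40 than in control tumors (median −1.42) and 45 with MEKi (median −0.77), with 0 called for anti-CD40 by limma and 3 at an unadjusted p below 0.05. Dlgap5, a spindle protein, differed by −2.14 ± 0.12 with MEKi/CD40 and −0.85 with MEKi, and Cks2, a CDK1 subunit, by −1.35 and −0.57. The 4 not called with MEKi/CD40 were Zwint (−0.28), Nsl1 (−1.49 ± 0.49), Pmf1 (−0.48) and Haspin (−0.76).

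Of 26 genes of DNA replication 21 were lower with MEKi/CD40 (median −1.13) and 18 with MEKi (median −0.58). Pola1, the catalytic subunit of polymerase alpha, differed by −1.44 with MEKi/CD40 and −0.81 with MEKi, and the helicase subunit Mcm6 by −0.74 and −0.30. No replication gene was called between MEKi/CD40 and MEKi, by limma, and 5 had an unadjusted p below 0.05. Of 16 regulators of cell cycle genes (MuvB subunits, MYBL2 and E2F proteins with their partners) 8 were lower with MEKi/CD40 (median −0.44) and 4 with MEKi. Lin9, a MuvB subunit, differed by −1.15 with MEKi/CD40 and −0.65 with MEKi, and Tfdp1, the partner of E2F proteins, by −0.51 and −0.31, all called. E2f8 (−1.61) and Rbl1 (−0.88) were called with MEKi/CD40 and stood at −0.59 and −0.55 with MEKi, where they were not called.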

How the data were processed

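RNA from 18 MC38 tumors (MEKi/CD40 4, MEKi 5, anti-CD40 4, control 5, each from another mouse) was hybridized to single-color Affymetrix Mouse430_2 arrays. The deposited log2 signals, 1 per probe set and array, were made by the authors with RMA, as named in the submitters' processing notes; no version was named. Values ran from 2.16 to 16.34, and 34.48% equalled the lowest value, so the exact background step is uncertain. Cell intensity files were not used here. The number of arrays limits the precision.

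Groups came from the sample labels. Of 45101 probe sets, 64 controls were left out. Of the remaining 45037, 34945 were paired with 1 gene symbol in the platform annotation, 932 with several and 9160 with none, and 34741 were matched to RefSeq genes (GRCm38.p6) by gene ID. A value counted as at the floor below 3, or within 0.3 of a value that its probe set repeated on at least 6 arrays. Each comparison was fitted on its 2 groups with lmFit and eBayes (limma 3.58.1, R 4.3.3), the interaction on all 18 arrays, with Benjamini-Hochberg adjustment over 45037 probe sets and a threshold of 0.05. Because many probe sets at the floor had no variance, the prior added only 0.357 degrees of freedom for anti-CD40 versus control. The fitting code was also run on simulated normal values, for probe sets with a mean of at least 5 only. That run held no probe sets at the floor, so it does not test the fit over 45037 probe sets. Scores are means of log2 signals and carry no test.

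The members and lists were chosen with earlier results of these data known. Genes named by rule are 7 well-known markers, the 2 smallest p-values per role, genes not called with MEKi/CD40, the 4 extremes, and 4 per pathway list. Up to 10 calls each of anti-CD40 versus control, MEKi/CD40 versus MEKi and the interaction were added. Some further members of the roles, such as Ndc80, Nuf2, Birc5 and Cep55, were named outside these rules. Alternatives were other normalizations, filters, moderation, array weights, blocks, the adipocyte score and leaving out each array. Same-numbered tumors of different groups did not deviate together (r −0.38 to 0.28, median −0.01, 25 pairs), so numbers did not pair samples.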

Additional observations from a re-analysis of the deposited data

Results flagged for a closer look

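In a check for single tumors far from the rest of their group, 6 of 164 groups of values stood out, where chance gives about 1 in 20. In anti-CD40 tumor 1 the log2 signal was 10.93 for Mki67 against 11.47 to 11.54 in the other 3 anti-CD40 tumors, 7.16 for Foxm1 against 7.62 to 7.68, 10.66 for Cenpa against 11.09 to 11.14, and 10.41 for Nusap1 against 11.02 to 11.13. The mean of the mitotic entry genes was 9.90 in that tumor and 10.19 to 10.22 in the other 3. In control tumor 5 Ube2c was 11.78, against 12.17 to 12.25 in the other 4 control tumors.

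The antibody's difference depended on the inhibitor, by the interaction over all 18 arrays, for Anln (−0.89, adjusted p = 0.00296), Ccnb2 (−1.38, 0.0149), Prc1 (−0.85, 0.0184), Cenpa (−0.99, 0.0188) and Cdc25c (−1.40, 0.0298). The same held for Cdca3 (−1.09, adjusted p = 0.0358), Ect2 (−0.93, 0.0369), Bub1 (−1.12, 0.0374), Hmmr (−0.98, 0.0465) and Ube2c (−1.02, 0.0472). With the title range as a block limma called 0 genes, with 23 of the 53 at an unadjusted p below 0.05, and the median of the interaction was −1.21 against −0.72 without the block.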

How the results depend on the processing

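No result turned its direction under any alternative where it was called. With MEKi/CD40 against control, 52 genes were called without any 1 tumor, 17 within the shared title range and 2 with the replicate block. The last 2 fits called 469 and 82 of all 45037 probe sets lower. With the mean of all probe sets of a gene, 51 genes were called at a median of −1.24, against −1.61 with the brightest set. For MEKi against control that mean gave 50 calls at a median of −0.65, against −0.80. Of 18193 genes these 2 fits on gene means called 2469 and 1390 lower. With MEKi against control the count of 50 was 29 with trend and robust moderation, and 0 with the title range as a block, within the shared range and with the replicate block. Leaving out 1 tumor gave 24 to 50, with 26, 24, 27 and 29 without control tumors 1, 2, 3 and 4, 27 without MEKi tumor 1 and 30 without MEKi tumor 3. With MEKi/CD40 against anti-CD40 the 52 calls became 34 with the adipocyte covariate, 22 with the replicate block and 3 without the 3 tumors of highest adipocyte mean, and were 39 to 52 without 1 tumor. The fit with 3 calls had 49 genes at an unadjusted p below 0.05.

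With MEKi/CD40 against MEKi the 14 calls became 40 with 1 model over all arrays, 36 for probe sets with a mean of at least 5, 26 with upper quartile scaling, 1 without the 2 of those 3 tumors that it holds, and 0 with the adipocyte covariate, the replicate block, or trend and robust moderation. Leaving out any 1 of the 9 tumors gave 0 to 9 calls, with 0 without MEKi tumors 2, 4 or 5. With MEKi against anti-CD40 the 25 calls became 50 for probe sets with a mean of at least 5, 40 with the adipocyte covariate, 1 with trend and robust moderation, and 0 with the range block, within the shared range or with the replicate block. Without 1 tumor they were 0 to 23, with 0, 1 and 8 without anti-CD40 tumors 2, 3 and 4 (tumor 3 being the only high-adipocyte tumor of this comparison), and 10, 16, 15 and 15 without MEKi tumors 1, 2, 3 and 5. The 10 interaction calls became 27 with array weights, 23 for probe sets with a mean of at least 5, 6 with the adipocyte covariate, 4 with the replicate block, 2 without the 3 tumors and 0 with the range block (median −1.21 against −0.72), and 4 to 13 without 1 tumor. They were 4 without MEKi/CD40 tumor 1, MEKi tumors 2 or 4, anti-CD40 tumors 2 or 3 or control tumors 3, 4 or 5, 5 without MEKi/CD40 tumor 2 or MEKi tumor 5, and 6 without anti-CD40 tumor 4 or control tumor 2. For anti-CD40 against control limma called 0 genes under every alternative, with at most 3 at an unadjusted p below 0.05. Replicate numbers did not pair the samples, so the block's counts describe a fit with fewer degrees of freedom. Only 2 of the 18 tumors correlated best with a tumor of their own number. Where limma called 0 genes outside the anti-CD40 comparison, 23 to 52 of the 53 had an unadjusted p below 0.05. In those fits at most 97 of all 45037 probe sets were called lower and at most 114 higher. The cause of the other changes was not tested. No mitotic gene measured here reached the array's floor, but probe sets at the floor enter the shared variance prior and the adjustment, and the counts of 14, 25 and 10 above became 36, 50 and 23 without the probe sets of a mean below 5.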

Other observations

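The spread between tumors differed by group. The SD of a mitotic gene's log2 signal had a median of 0.34 over the 53 genes in MEKi/CD40 tumors, 0.28 in MEKi tumors, 0.19 in anti-CD40 tumors and 0.20 in control tumors. MEKi/CD40 tumors 1 and 2 were the lowest 2 of their group for 44 genes, and control tumor 5 was the lowest of its group for 41. Macrophage markers averaged 12.30 in MEKi/CD40 tumor 3 and 10.86 to 11.27 in the other 3 MEKi/CD40 tumors.

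Among the other mitotic genes, Troap, chosen after its values were seen, had the largest difference between MEKi/CD40 and control tumors, −3.02 ± 0.34 (SE, adjusted p = 0.00203 by limma).

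Of 10 T cell markers limma called 0 in any comparison with control, and their mean log2 signal was 5.70 to 7.02 in MEKi/CD40 tumors, 5.29 to 6.31 in MEKi tumors, 5.71 to 7.29 in anti-CD40 tumors and 4.89 to 6.16 in control tumors. At an unadjusted p below 0.05 stood 6 of them in the anti-CD40 comparison, 2 in that of both drugs and 0 in that of the inhibitor. Thy1 is counted in both the T cell and the fibroblast list, so these lists are not separate. Of 5 neutrophil markers 2 were called higher than in control tumors with MEKi/CD40 and 2 with MEKi, at means of 4.99 to 6.23 in MEKi/CD40 tumors, 3.65 to 4.99 in MEKi tumors, 3.81 to 4.85 in anti-CD40 tumors and 3.30 to 3.61 in control tumors. The 3 red blood cell markers averaged 4.66 to 5.55 in MEKi/CD40 tumors and 3.62 to 3.67 in control tumors, where 2 of them were called higher in the treated group and 1 lower. Floor values enter these means. Among neutrophil markers Cxcr2 and Mpo were at the floor in every tumor, and S100a9 in every control tumor. The red blood cell markers Alas2 and Slc4a1 were at the floor in every control tumor.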
